A study of Mus musculus with 4 samples.

Results

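The GIMAP genes (GTPases of immunity-associated proteins) were followed in spleen RNA of wild-type and KLHL3 knock-in mice. The members were the 8 mouse genes of the family whose symbols were matched to the Ensembl identifiers of the deposited table, namely Gimap1, Gimap3, Gimap4, Gimap5, Gimap6, Gimap7, Gimap8 and Gimap9, out of 23763 genes in the table. All 8 were matched, and all 8 passed the minimum level for a test, an average of 1 or more over the 4 libraries, as did 16970 genes in all. The mice were of the C57BL/6J strain, kept at baseline with no treatment named. One group was wild-type (WT) and the other carried a knock-in at Klhl3 (KLHL3-KI), which encodes the substrate adaptor of a cullin ubiquitin ligase, and each group had 2 libraries of ribosome-depleted, strand-marked total RNA. The sources used here do not give the knock-in allele, the age or sex of the mice, or whether each library is 1 animal, so p-values measure only the spread between these libraries, which may be technical.

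GIMAP proteins share a GTP-binding domain of the AIG1 type and are made mainly by lymphocytes, where several of them sit on the membranes of organelles. Their genes lie side by side on 1 chromosome. The family is best known for keeping resting T and B cells alive: mice without Gimap5 or Gimap1 lose mature lymphocytes, while other members have been tied to apoptosis and autophagy.

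The RefSeq promoter table of build GRCm38.p6 held 9 windows for the 8 genes, 2 of them for Gimap8. The 250 bases before the RefSeq start were searched on both strands for AGGAAG, a core that ETS factors of lymphocytes bind, and for TGTGGT, a core of RUNX factors. The ETS letters were found in 7 of the 9 windows, 1 for each gene except Gimap6, against 29.5% of 32851 windows of the table. The RUNX letters were found in the windows of Gimap1, Gimap4 and Gimap7, against 14.0% of all windows. CTTTGA, a core of TCF/LEF factors, was in none of the 9, against 13.8% of all windows. AGATAAG, a core of Gata1-type factors, was in none, against 2.74%. GTAAACA, a core of FOXO factors, was in that of Gimap3, against 3.17%. These are matches of letters, not measured sites. The 4 windows printed next, 5′ to 3′ on the strand of the gene, include the members with the largest fall (Gimap3) and the smallest fall (Gimap7) described further on. The others are Gimap1, which holds both AGGAAG and the RUNX letters, and Gimap6, which holds neither string. Other letters that ETS or RUNX factors can bind were not searched, so Gimap6 is not shown to lack such sites. Capitals mark the searched ETS and RUNX letters on either strand.
Gimap3, chr6:48770852-48771101, minus strand: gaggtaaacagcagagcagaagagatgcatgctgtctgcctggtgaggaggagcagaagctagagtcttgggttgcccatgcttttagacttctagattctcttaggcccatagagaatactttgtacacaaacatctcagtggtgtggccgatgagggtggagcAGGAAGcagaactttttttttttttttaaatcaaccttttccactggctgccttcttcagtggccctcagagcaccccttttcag
Gimap7, chr6:48718371-48718620, plus strand: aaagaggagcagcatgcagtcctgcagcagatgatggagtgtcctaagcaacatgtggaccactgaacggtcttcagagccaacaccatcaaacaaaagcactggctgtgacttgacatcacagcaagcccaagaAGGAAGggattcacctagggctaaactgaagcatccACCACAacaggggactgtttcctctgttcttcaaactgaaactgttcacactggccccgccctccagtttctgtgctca
Gimap1, chr6:48738797-48739046, plus strand: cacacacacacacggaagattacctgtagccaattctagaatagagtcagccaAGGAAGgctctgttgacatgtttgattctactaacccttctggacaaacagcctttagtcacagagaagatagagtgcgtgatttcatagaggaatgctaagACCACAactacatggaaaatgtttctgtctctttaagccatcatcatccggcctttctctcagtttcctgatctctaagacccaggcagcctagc
Gimap6, chr6:48708245-48708494, minus strand: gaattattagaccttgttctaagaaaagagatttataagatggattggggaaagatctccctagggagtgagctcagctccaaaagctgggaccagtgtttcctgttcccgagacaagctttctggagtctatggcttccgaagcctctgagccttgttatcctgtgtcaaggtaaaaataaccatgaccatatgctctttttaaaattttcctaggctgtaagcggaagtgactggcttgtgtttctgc
In these 4 windows AGGAAG stands once each in Gimap3, Gimap7 and Gimap1, and the RUNX core, read on the other strand as ACCACA, stands downstream of it in Gimap7 and Gimap1.

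The table rests on 8535483 and 8975415 whole reads in the WT libraries (replicates 1 and 2) and on 9586677 and 10933023 in the KLHL3-KI libraries. All values given here are scaled read counts, that is reads divided by 1 factor per library. A log2 fold change is KLHL3-KI minus WT on the scale log2(value + 1), which understates the change of low genes, with its standard error (SE) and a Benjamini-Hochberg adjusted p over all 16970 tested genes from limma. Across these genes 2583 rose (15.2%) and 1283 fell (7.56%) at an adjusted p under 0.05. That split depended on the scaling: 1912 rose and 3126 fell with equal total reads per library, 2041 and 2369 after quantile normalization, and 2092 and 2965 with haemoglobin, immunoglobulin and mitochondrial genes removed, where the median over all genes (log2) moved from -0.01 to -0.16, -0.10 and -0.14. Klhl3 itself was at 3.02 and 4.67 in WT against 2.53 and 1.36 in KLHL3-KI libraries and did not pass (limma adjusted p = 0.0895); a gene total does not check a knock-in allele. Markers of the tissue were present, with no library at 0 for any matched T cell, B cell or endothelial marker.

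All 8 GIMAP genes were lower in KLHL3-KI spleen. Each of the 8 fell in the limma test, beside 7.56% of all tested genes, and none rose. The log2 fold changes ran from -0.71 to -0.36 with a median of -0.57, against a median of -0.01 over all tested genes. In each of the 8 both KLHL3-KI values lay below both WT values, an order that 31.9% of all tested genes showed. It was not particular to the family. Of the lists read further on, 11 of 11 naive lymphocyte genes, 17 of 18 T cell markers and 13 of 13 B cell markers showed it. So did 5 of 8 NK cell markers, 8 of 12 endothelial markers and 8 of the 10 genes bordering the cluster. Summed over the family, WT libraries stood at 1085 and 1064 and KLHL3-KI libraries at 756 and 645. In reads, the family took 0.114% of each WT library and 0.0717% and 0.0606% of the KLHL3-KI libraries, from 6623 to 10247 reads. In bulk spleen, a smaller share of lymphocytes among the cells and less RNA per lymphocyte cannot be told apart. The levels are relative to the rest of each library, so they do not give a number of lymphocytes.

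**Figure D1:**
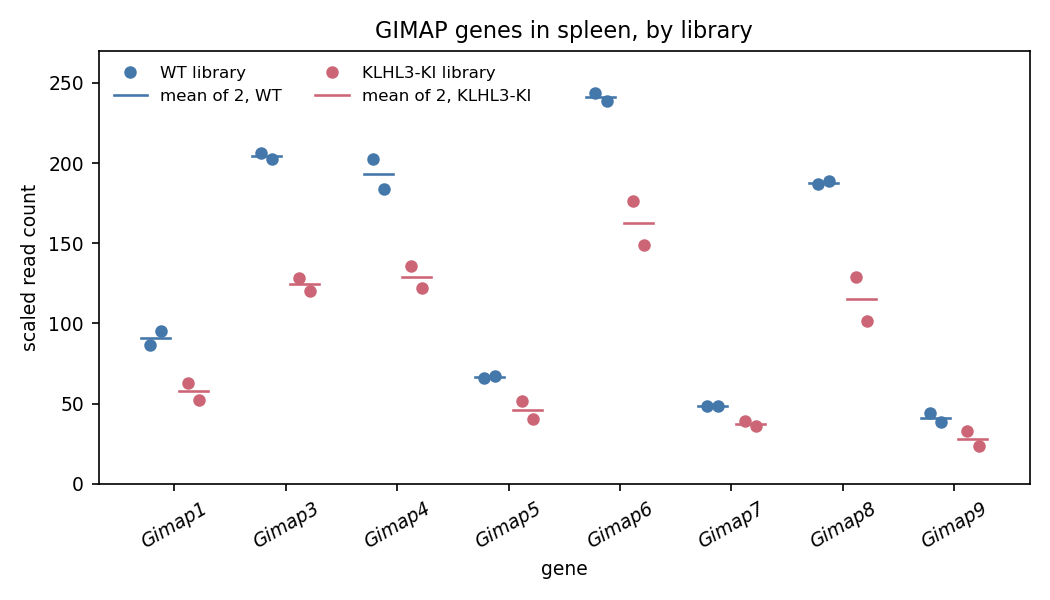
Scaled read count (y axis) of each GIMAP gene (x axis) in the 2 WT and 2 KLHL3-KI libraries, with points for libraries and lines for the mean of 2. In every gene both KLHL3-KI points lie below both WT points, from Gimap6, at 244 and 239 in WT against 176 and 149, to Gimap9, at 44.0 and 38.6 against 32.9 and 23.6.

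Gimap5 and Gimap1, whose loss is known to empty the lymphocyte pool, come first, together with Gimap3. Gimap5 (ENSMUSG00000043505), needed for survival of peripheral T cells, was at 66.2 and 66.9 in WT against 51.7 and 40.6 in KLHL3-KI libraries. It fell by 0.53 on the log2 scale (SE 0.13, limma adjusted p = 0.0143), and the KLHL3-KI libraries lay further apart than the WT libraries. Gimap1 (ENSMUSG00000090019), needed for mature B and T cells, was at 86.8 and 95.5 in WT against 63.0 and 52.2 in KLHL3-KI libraries, and it fell by 0.66 (SE 0.12, limma adjusted p = 0.00334). Gimap3 (ENSMUSG00000039264), the closest relative of Gimap5 in the mouse, had the smallest SE of the 8. It was at 206 and 202 in WT against 129 and 120 in KLHL3-KI libraries, a mean 39.2% lower, and fell by 0.71 (SE 0.09, limma adjusted p = 4.32e-04).

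Members tied to apoptosis, autophagy or the GTPase cycle followed. Gimap4 (ENSMUSG00000054435), which affects how fast T cells die, was at 202 and 184 in WT against 136 and 122 in KLHL3-KI libraries and fell by 0.58 (SE 0.10, limma adjusted p = 0.00280). Gimap6 (ENSMUSG00000047867), which takes part in autophagy of T cells, had the highest scaled counts of the family. It was at 244 and 239 in WT against 176 and 149 in KLHL3-KI libraries and fell by 0.57 (SE 0.10, limma adjusted p = 0.00369). Gimap7 (ENSMUSG00000043931), an active GTPase of the family, showed the smallest change: it was at 48.3 and 48.7 in WT against 39.0 and 36.1 in KLHL3-KI libraries, a mean 22.6% lower, and fell by 0.36 (SE 0.11, limma adjusted p = 0.0356). Gimap8 (ENSMUSG00000064262), which carries several GTP-binding domains in 1 protein, was at 187 and 189 in WT against 129 and 101 in KLHL3-KI libraries and fell by 0.71 (SE 0.12, limma adjusted p = 0.00240). Gimap9 (ENSMUSG00000051124) was the lowest in scaled counts, at 44.0 and 38.6 in WT against 32.9 and 23.6 in KLHL3-KI libraries, and fell by 0.55 (SE 0.16, limma adjusted p = 0.0345), with the widest error of the 8.

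The calls of Gimap3, Gimap4, Gimap6 and Gimap8 held under all 17 other settings tried, and those of Gimap5, Gimap7, Gimap9 and Gimap1 did not. Without WT replicate 1, 5 of the 8 were called lower (2.78% of all tested genes), without WT replicate 2, 4 (1.57%), and without KLHL3-KI replicate 2, 5 (4.63%). Gimap5, Gimap7 and Gimap9 lost the call each time (limma adjusted p from 0.0701 to 0.216), and Gimap1 did so without WT replicate 2 (0.0630). With no variance trend the same 3 genes lost it and 5 were called (3.88% of all tested genes). Gimap1, Gimap4, Gimap6 and Gimap8 kept it narrowly there (limma adjusted p = 0.0410, 0.0419, 0.0480 and 0.0394), and Gimap3 by more (0.0180). DESeq2 on the recovered reads called 7 (4.60%), without Gimap7, and edgeR called 8 (7.98%). With equal total reads all 8 were called lower, where 18.4% of all tested genes were, and the median of the family was -0.74, or -0.58 relative to the median of all genes.

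**Figure D2:**
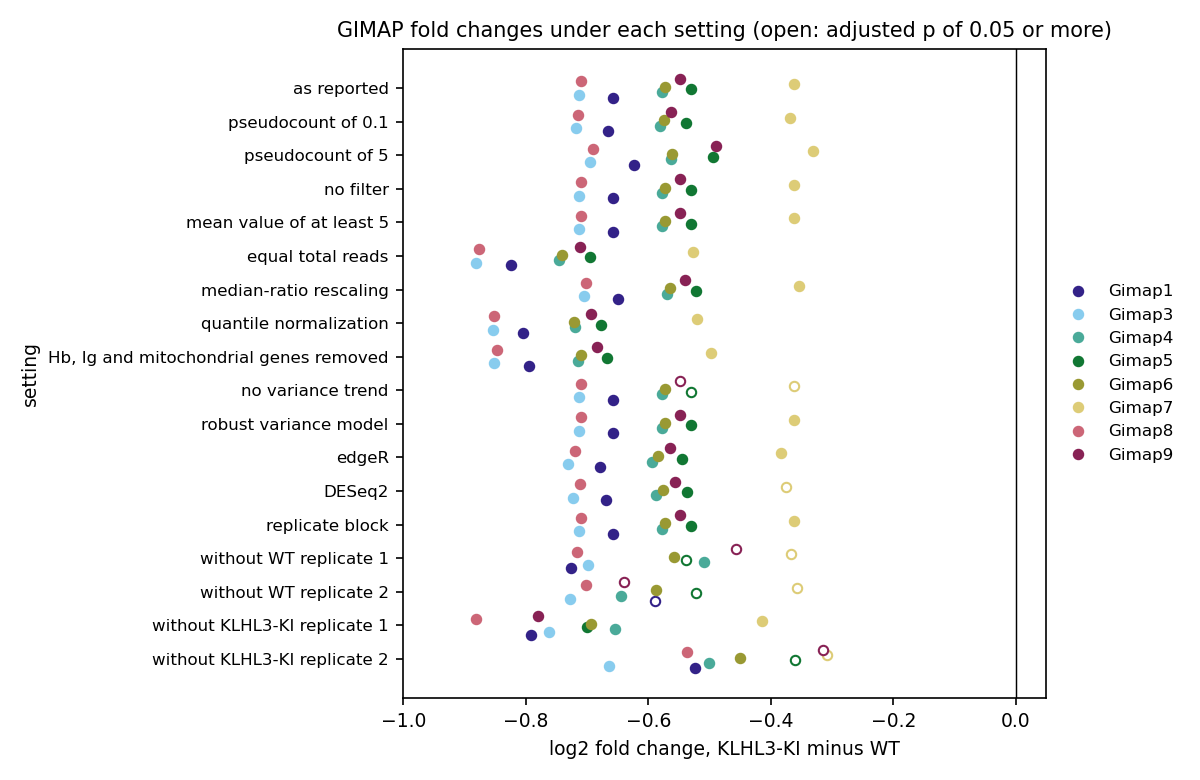
Log2 fold change (x axis) of each GIMAP gene, in 1 colour each, under each setting (y axis), filled where the adjusted p was under 0.05 and open otherwise. All points lie left of 0, from -0.88 to -0.31; the open points belong to Gimap1, Gimap5, Gimap7 and Gimap9.

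The size of the change was compared within the family. The 95% interval of the log2 fold change ran from -0.92 to -0.51 for Gimap3 and from -0.60 to -0.12 for Gimap7, so the intervals of the most and the least changed member overlapped. The ratio of Gimap3 to Gimap7 was 4.27 and 4.16 in WT against 3.30 and 3.32 in KLHL3-KI libraries. These groups did not overlap, but the pair was chosen as the extremes of the 8 fold changes, and the difference between them was not tested. The ratio of Gimap4 to Gimap6 was 0.831 and 0.772 in WT against 0.773 and 0.823 in KLHL3-KI libraries, with overlapping groups. Gimap6 made up the largest part of the summed family level in every library, from 22.4% to 23.3%, and Gimap9 the smallest, from 3.63% to 4.35%.

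Per kilobase of annotated exon, the order of the members was much the same in the 4 libraries. Gimap4 stood first in each, at 110 and 100.2 per kilobase in WT against 74.1 and 66.6 in KLHL3-KI libraries, followed by Gimap3, with WT and KLHL3-KI means of 79.3 ± 1.10 and 48.3 ± 2.35 (SD, n = 2 here and in the next values), and Gimap6, with 68.9 ± 1.02 and 46.4 ± 5.56. Gimap3 and Gimap6 did not differ beyond their spread in KLHL3-KI spleen, where Gimap6 was the higher of the pair in replicate 1 (50.4 against 49.9). Gimap8 came next in every library, with means of 50.8 ± 0.376 and 31.2 ± 5.27, and then Gimap1, with 29.7 ± 2.00 and 18.7 ± 2.48. Gimap1 and Gimap9 overlapped in KLHL3-KI spleen, as did Gimap9, with means of 25.1 ± 2.31 and 17.2 ± 4.03, and Gimap7, with 20.9 ± 0.106 and 16.2 ± 0.869. Gimap5 was the lowest in each library, with means of 16.0 ± 0.122 and 11.1 ± 1.88. The lengths, from 1.64 kb for Gimap9 to 4.15 kb for Gimap5, come from an annotation of build GRCm38.

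Related members can share reads. Of all stretches of 50 bases in the annotated transcripts of Gimap3, 7.52% also occur in Gimap5, and 4.53% of those of Gimap5 occur in Gimap3, so the split of reads between this pair is the least certain. No such stretch was shared with another member by Gimap1, Gimap4, Gimap6, Gimap7, Gimap8 or Gimap9. The predicted gene Gm28053, a model that runs across the cluster, shares 4.78% of the stretches of Gimap1, 2.50% of Gimap5 and 1.39% of Gimap7.

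Other genes of the cluster and its borders were read in chromosome order. Between the members lie 4 other tested genes. Gimap1os (ENSMUSG00000044867), on the strand opposite to Gimap1, was at 36.1 and 37.2 in WT against 26.0 and 22.0 in KLHL3-KI libraries and fell by 0.60 (SE 0.12, limma adjusted p = 0.00777; 0.0600 without WT replicate 1 and 0.0836 without WT replicate 2). The ratio of Gimap1 to Gimap1os was 2.40 and 2.57 in WT against 2.42 and 2.37 in KLHL3-KI libraries. The libraries keep strand, but whether the counting used it is not given in the sources used here. Without it, reads from any stretch that this pair shares cannot be told apart. Gm28053, Gm44226 and 4833403J16Rik did not pass, with log2 fold changes of -0.71, -0.31 and -0.21; Gm28053 was at 3.24 or less in each library and passed without KLHL3-KI replicate 2 (limma adjusted p = 0.0168).

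Of the 5 tested genes on each side of the cluster, 0 of 10 passed in limma, edgeR or DESeq2. Of all tested genes 7.56%, 7.98% and 4.60% were called lower there, shares at which a list of 10 may hold none. At an unadjusted p under 0.05, 3, 3 and 1 of the 10 were lower in these tests. Their median log2 fold change was -0.29, against -0.57 for the GIMAP genes. Aoc1, Atp6v0e2, Gpnmb and Zfp775 had only 6 to 59 reads in a library, where this scale understates a change. Their KLHL3-KI means were 47.8%, 39.6%, 32.0% and 31.9% below WT, against 22.6% to 39.2% in the members. Those of Lrrc61, Tmem176b, Tmem176a and Malsu1 were 21.5%, 16.5%, 16.0% and 14.5% lower, and those of Repin1 and Rarres2 were higher. Among the 6 bordering genes averaging 5 or more, the median log2 fold change was -0.23. The nearest on 1 side, the membrane protein genes Tmem176b and Tmem176a, were at 121 and 112 and at 112 and 105 in WT against 101 and 92.8 and 95.9 and 85.7 in KLHL3-KI libraries. Their log2 fold changes were -0.26 and -0.25 (limma adjusted p = 0.0880 and 0.103), and both passed as lower under the scalings with equal total reads (0.00963 and 0.0121), quantile normalization and removal of abundant genes. On the other side Zfp775, Repin1, Rarres2, Lrrc61 and Atp6v0e2 had log2 fold changes of -0.42, 0.08, 0.09, -0.32 and -0.38. Those of Repin1 and Rarres2 turned below 0 with equal total reads, and Lrrc61 passed as lower there (limma adjusted p = 0.0346). On the side of the Tmem176 genes, Aoc1, Gpnmb and Malsu1 had -0.50, -0.44 and -0.21. The difference between members and bordering genes was not tested.

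**Figure D3:**
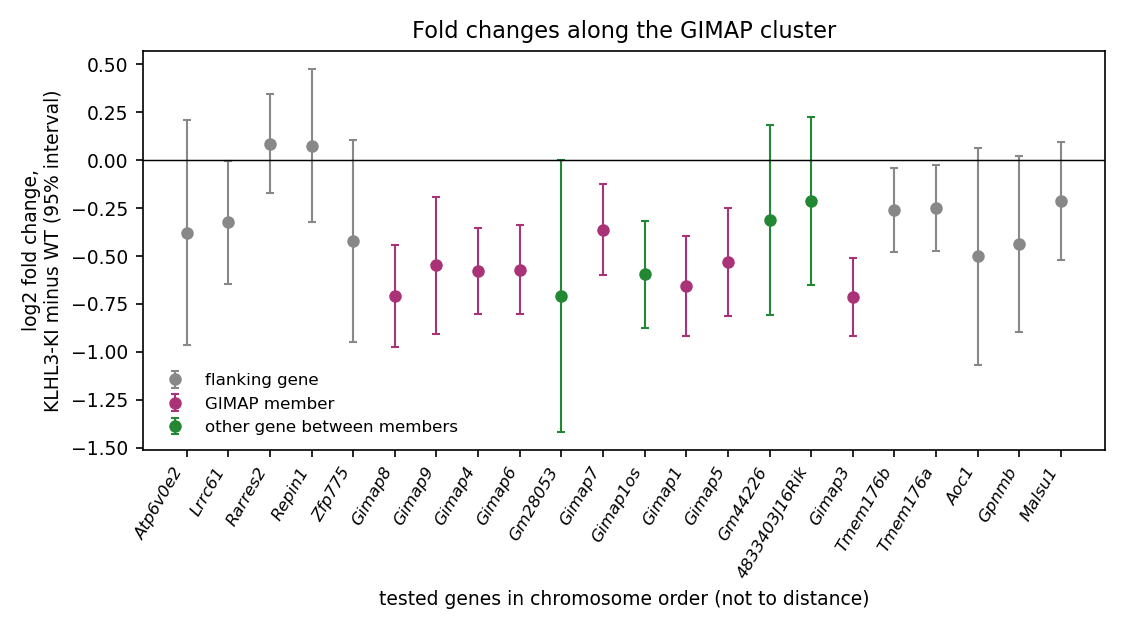
Log2 fold change with its 95% limma interval (y axis) of the tested genes along the cluster in chromosome order (x axis, ranks and not distances), for GIMAP members, other genes between them and 5 flanking genes on each side. The 8 member intervals lie below 0 as a whole; of the flanking genes those of Lrrc61, Tmem176b and Tmem176a do so by a narrow margin, with no adjusted p under 0.05.

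Genes of resting lymphocytes were read beside the family. Of 11 naive lymphocyte genes, 10 fell and none rose, beside 7.56% of all tested genes that fell. Their median log2 fold change was -0.67. Lef1, a transcription factor that naive T cells keep high, was at 53.0 and 52.4 in WT against 22.7 and 23.5 in KLHL3-KI libraries and fell by 1.16 (SE 0.11). Bach2, which restrains lymphocyte activation, fell by 0.97 (SE 0.11), the quiescence factor Klf2 fell by 0.70 (SE 0.09) and Tcf7 fell by 0.75 (SE 0.10). Their adjusted p in limma was 2.48e-04, 6.91e-04 and 7.58e-04. Il7r, the receptor subunit through which IL-7 keeps naive T cells alive, was at 104 and 71.6 in WT against 52.5 and 71.1 in KLHL3-KI libraries and did not pass (limma adjusted p = 0.0868). Without WT replicate 1 the median of these 11 genes was -0.74, and without WT replicate 2 it was -0.63. Fewer of them passed in both fits, as did fewer of all tested genes. With no variance trend 7 fell, beside 3.88% of all tested genes.

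T cell and B cell markers fell with the family. Of 18 T cell markers 16 fell and none rose, beside 7.56% of all tested genes that fell. Their median log2 fold change was -0.72, and their summed level was 904 and 774 in WT against 530 and 474 in KLHL3-KI libraries. Bcl11b, Cd6, Cd3e and Cd5 are genes of T cell identity, of the T cell receptor complex and of coreceptors. They fell by 0.94, 0.97, 0.87 and 0.91 on the log2 scale (SE 0.11, 0.12, 0.11 and 0.13). Of 13 B cell markers 12 fell and none rose, beside the same 7.56%. Their median was -0.70, and their summed level was 4349 and 4549 in WT against 3305 and 2513 in KLHL3-KI libraries. The low-affinity IgE receptor Fcer2a and the transcription factors Ebf1 and Pax5 fell by 0.89, 0.77 and 0.72. Without WT replicate 1 the T cell and B cell medians were -0.56 and -0.69, and without WT replicate 2 they were -0.84 and -0.63. Fewer markers of each list passed in both fits, as did fewer of all tested genes. Pax5 did not pass without WT replicate 2. With no variance trend 11 T cell and 5 B cell markers fell, beside 3.88% of all tested genes. What part the number of T and B cells had in the lower GIMAP levels was not tested.

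NK cells, which also express GIMAP genes, were covered by 8 markers, of which 3 fell and none rose (median -0.39). Of all tested genes 7.56% fell, or 18.4% with equal total reads. The summed level of the 8 was 126 and 121 in WT against 96.4 and 90.5 in KLHL3-KI libraries. The NK transcription factor Eomes fell by 0.81 (SE 0.16), the receptor Ncr1 by 0.55 (SE 0.17) and the receptor Klrk1 by 0.39 (SE 0.12). Their adjusted p in limma was 0.00592, 0.0418 and 0.0371. The perforin gene Prf1 had a log2 fold change of -0.39 and did not pass (0.0907). Without WT replicate 1 the median of the 8 was -0.32, and without WT replicate 2 it was -0.46. Fewer of the 8 passed in these fits, and in those without either KLHL3-KI library. DESeq2 called 1 of the 8, beside 4.60% of all tested genes, and with equal total reads 5 were called.

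Vessel and sinus markers were given as another cell type of spleen. Of 12 endothelial markers 0 passed in limma, edgeR or DESeq2. Of all tested genes 7.56%, 7.98% and 4.60% were called lower there, shares at which a list of 12 may hold none. At an unadjusted p under 0.05, 2, 3 and 1 of the 12 were lower in these tests, and their median log2 fold change was -0.16. Their summed level was 779 and 769 in WT against 707 and 607 in KLHL3-KI libraries. The sinus receptor Stab2 was at 302 and 324 in WT against 281 and 220 in KLHL3-KI libraries (log2 fold change -0.33, limma adjusted p = 0.0789), and Kdr, Pecam1 and Esam had -0.31, -0.22 and 0.30. With equal total reads, 4 of the 12 were called lower, beside 18.4% of all tested genes. Quantile normalization and removal of abundant genes also gave 4 each, where 2369 and 2965 genes fell in all. A replicate block gave 1, where 1415 genes fell in all. Without KLHL3-KI replicate 1 the median log2 fold change of the 12 was -0.24.

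The family was then set against these markers within each library. The summed GIMAP level was 1.20 and 1.37 times the summed T cell marker level in WT and 1.43 and 1.36 times in KLHL3-KI libraries, with overlapping groups. Over B cell markers the ratio was 0.249 and 0.234 in WT against 0.229 and 0.257 in KLHL3-KI libraries, and over naive lymphocyte genes 0.529 and 0.524 against 0.540 and 0.486, again overlapping. Over NK cell markers it was 8.62 and 8.79 in WT and lower, at 7.85 and 7.13, in KLHL3-KI libraries. Over endothelial markers it was 1.39 and 1.38 in WT and lower, at 1.07 and 1.06, in KLHL3-KI libraries. These ratios do not change with the scaling of a library, and no test was made on them, since the smallest two-sided p that an exact permutation of 2 against 2 libraries allows is 0.333.

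**Figure D4:**
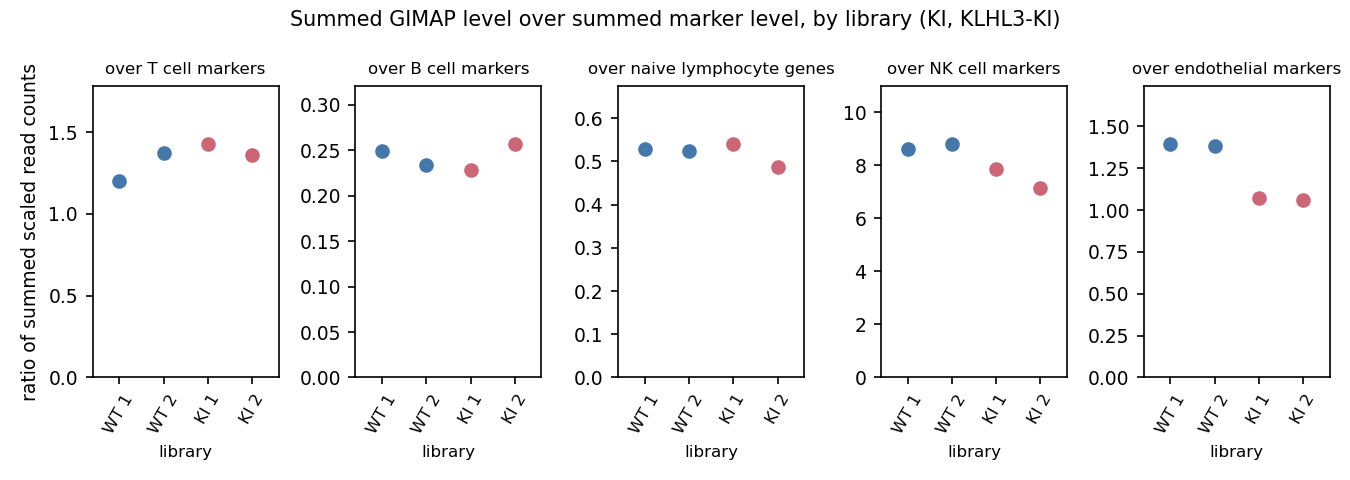
Ratio of the summed scaled read counts of the 8 GIMAP genes to those of 5 gene lists (y axes, each from 0) in each library (x axes; KI is KLHL3-KI). WT and KLHL3-KI points overlap for T cell, B cell and naive lymphocyte genes and are separate for NK cell markers (8.62 and 8.79 against 7.85 and 7.13) and endothelial markers (1.39 and 1.38 against 1.07 and 1.06).

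Red cell precursor and neutrophil markers moved the other way. All 8 matched erythroid precursor markers rose, beside 15.2% of all tested genes. Their median log2 fold change was 2.58, and their summed level was 1592 and 1273 in WT against 5835 and 6641 in KLHL3-KI libraries. All 8 neutrophil markers rose, beside the same 15.2%. Their median was 3.76, and their summed level was 143 and 64.8 in WT against 1332 and 1801 in KLHL3-KI libraries. Among both lists the erythroid factor Klf1 rose by 3.12 (SE 0.13) and the neutrophil elastase gene Elane by 3.76 (SE 0.25). With a robust variance model 5 of the 8 neutrophil markers passed, where 2739 of 16970 tested genes rose. The part of these cells in the lower GIMAP levels was not tested.

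**Figure D5:**
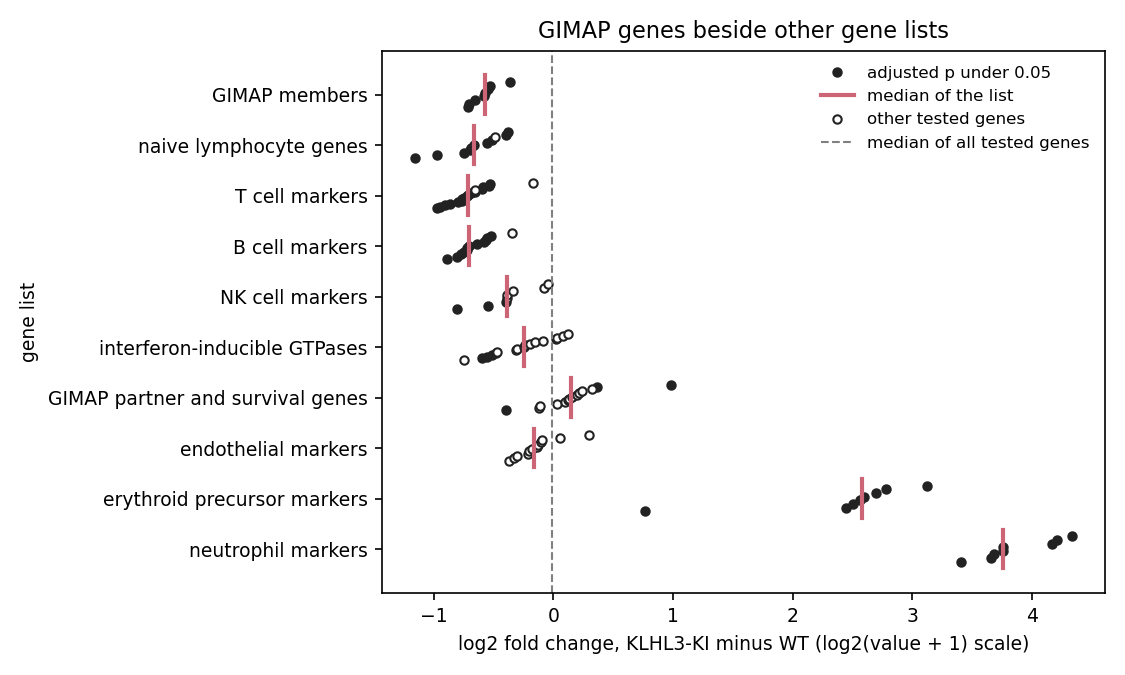
Log2 fold change (x axis) of every tested gene of each list (y axis), filled where the limma adjusted p was under 0.05, with a red bar for the median of the list and a dashed line for the median of all tested genes (-0.01). GIMAP, naive lymphocyte, T cell and B cell genes lie left of the line (medians -0.57, -0.67, -0.72 and -0.70), and erythroid precursor and neutrophil markers right of it (2.58 and 3.76).

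Genes that GIMAP proteins have been linked with were read next. Of 14 regulators of apoptosis, autophagy and GSK3 signalling, 2 rose and 1 fell, with a median log2 fold change of 0.14, beside 15.2% of all tested genes that rose and 7.56% that fell. Bcl2, the survival factor of lymphocytes, was at 89.6 and 108 in WT against 76.2 and 73.1 in KLHL3-KI libraries and fell by 0.40 (SE 0.11, limma adjusted p = 0.0311; 0.243 without WT replicate 2, 0.0736 without KLHL3-KI replicate 2 and 0.119 with no variance trend). Its relative Bcl2l1, which is also known to keep red cell precursors alive, was at 81.0 and 69.0 in WT against 144 and 153 in KLHL3-KI libraries and rose by 0.98 (SE 0.11, limma adjusted p = 1.53e-04). The autophagy gene Map1lc3b rose by 0.36 (SE 0.09, limma adjusted p = 0.0199), a call lost with equal total reads (0.116), after quantile normalization (0.0749), with abundant genes removed (0.0764), with no variance trend (0.0985), without WT replicate 1 (0.0595), without WT replicate 2 (0.157) and without KLHL3-KI replicate 2 (0.0653). Its relative Gabarapl1 had 0.32 and did not pass (0.0636). Gsk3b, the kinase that Gimap5 has been tied to, was at 145 and 146 in WT against 145 and 151 in KLHL3-KI libraries, with overlapping groups. The median of this list was -0.02 with equal total reads, where 1 rose and 2 fell.

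The genes with the pattern most like the family were found by the root-mean-square distance between centred log2(value + 1) profiles over the 4 libraries, among 8040 other genes that averaged 20 or more. The nearest 5 were Stambpl1, which encodes a deubiquitinase (distance 0.0172), Atp8b2, which encodes a phospholipid flippase subunit (0.0179), S1pr1, the receptor that lets lymphocytes leave lymphoid organs (0.0182), Cd79a, a signalling chain of the B cell receptor (0.0196), and Ptprcap, a partner of the leukocyte phosphatase CD45 (0.0200). S1pr1 was at 206 and 205 in WT against 154 and 127 in KLHL3-KI libraries, and Cd79a at 413 and 419 in WT against 309 and 255 in KLHL3-KI libraries. In both the second KLHL3-KI library was the lower, as in the sum of the GIMAP genes, an order that follows from choosing genes by this pattern. In all, 63 of the 8040 genes (0.784%) lay within 0.05, while the members themselves ran from 0.00676 for Gimap6 to 0.123 for Gimap7. The 4 points share library and group, so this is a description with no test.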

How the data were processed

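Spleen RNA of 2 WT and 2 KLHL3-KI samples was compared, grouped and numbered by the sample titles; columns were matched by library name, whose numbers can differ from those of the titles. Per the submitters' processing notes, Trimmomatic 0.38, Bowtie2, RSEM 1.3.0 and edgeR were used with build GRCm39; their roles, the annotation and the filters are not stated. The deposited table holds a normalized signal per gene that the authors call normalized counts. Its values are whole multiples of the smallest value of each library (100% of values, within 0.001 of a read). So whole numbers, called reads here, were recovered. Whether they are counted reads or rounded estimates is not stated. Depth limits precision, as does n = 2 per group. Names, exon lengths, strands and the order of genes along the chromosome came from GENCODE M21 (GRCm38; 23617 identifiers named), whose gene coordinates are not printed because the build differs. Genes averaging 1 or more were compared across all genes with limma 3.58.1 in R 4.3.3 on log2(value + 1), with a variance trend; edgeR 4.0.16 and DESeq2 1.42.0 on recovered reads were alternatives. The fits were also run on simulated data as a check of the code. That simulation changed few genes, balanced in direction, unlike these data, so it does not measure how many calls here are false. The members, lists and rules were chosen with earlier results of these data known. Named genes are the members, up to 4 lowest-p genes of each list, genes between members, 5 bordering genes on each side and the 5 nearest patterns; Il7r, Gsk3b, Mx2 and Iigp1 were named after their values were seen, and 1 gene that the rule names is not reported here. Ahsp, 1 erythroid marker, was not matched.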

Additional observations from a re-analysis of the deposited data

How the results depend on the processing

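All 8 GIMAP genes kept a negative log2 fold change under the 17 alternatives, with 122 of 136 values on the same side of the threshold as reported and 14, of 4 genes, no longer past it. The number of GIMAP genes called lower was 8 and became 5 with no variance trend and ran from 4 to 8 when 1 library was left out. The count of all called genes, 3866, was 2462 with no variance trend and ran from 1653 to 4530 when 1 library was left out. Same-numbered libraries did not deviate together (correlation of deviations over genes -0.03), so the numbers were not taken as pairs; with a replicate block 2715 genes rose and 1415 fell, and 8 GIMAP genes were called lower. Among the 55 other named genes, Rarres2 turned to -0.0757 with equal total reads, -0.0486 after quantile normalization and -0.0468 with haemoglobin, immunoglobulin and mitochondrial genes removed. Repin1 turned to -0.0763 with equal total reads and -0.0495 with those genes removed, and its log2 fold change ran from -0.11 to 0.26 when 1 library was left out. None of these passed, and the cause was not tested. S1pr1, Stambpl1 and Atp8b2 lost their calls without WT replicate 1 (0.0551, 0.0869 and 0.0728) and without WT replicate 2 (0.0638, 0.0947 and 0.0684), Stambpl1 also without KLHL3-KI replicate 2 (0.0568), Cd79a without WT replicate 2 (0.0630) and Ptprcap without WT replicate 1 (0.0537). Klrk1 and Ncr1 lost theirs with DESeq2 and without any 1 library. Where 1 library was left out, the lone library of its group was assumed to vary like those of the other group. The 2 libraries per group limit every call, and Gimap9 rested on as few as 242 reads in a library.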

Other observations

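Other GTPase families of immune cells, the interferon-inducible guanylate-binding, immunity-related, Mx and very large GTPases, were read as 17 genes. Of these 4 fell and none rose (median log2 fold change -0.25), beside 7.56% of all tested genes that fell. The guanylate-binding genes Gbp4 and Gbp9 were at 88.6 and 78.3 and at 121 and 97.1 in WT against 60.2 and 52.4 and 76.8 and 66.0 in KLHL3-KI libraries. They fell by 0.56 and 0.60 on the log2 scale (SE 0.11 and 0.13, limma adjusted p = 0.00650 and 0.00833). The very large GTPase Gvin1 was at 691 and 529 in WT against 449 and 398 in KLHL3-KI libraries and fell by 0.51 (SE 0.13, limma adjusted p = 0.0204), and Tgtp1, whose near copy Tgtp2 may share its reads, fell by 0.48 (SE 0.13, limma adjusted p = 0.0249). Mx2 had the largest change of the list, -0.74, and did not pass (0.0665). The summed level was 1734 and 1301 in WT against 1209 and 1173 in KLHL3-KI libraries, so the WT libraries differed more from each other here than in the GIMAP genes. Without WT replicate 1 none of the 17 fell and 1, Iigp1, rose, with a median of -0.05, while without WT replicate 2, 5 fell with a median of -0.38. With equal total reads 8 fell, beside 18.4% of all tested genes, and with no variance trend none did, beside 3.88%. Tgtp1 lost its call without WT replicate 2 (0.0731), and Tgtp1 and Gvin1 did without KLHL3-KI replicate 2 (0.0750 and 0.0538).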
